A study of Homo sapiens with 4 samples.

Results

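The sterol synthesis genes described here are 8 genes read by name from an RNA-seq count table of T98G cells: HMGCS1, IDI1, FDFT1, SQLE, DHCR7, SCD, SREBF2 and INSIG1. They are 8 of the 20913 genes in the table, and all 8 were among the 17863 genes that passed the filter on low counts. T98G is an established human glioblastoma line, labelled by the submitters as astroblastoma. The cells carried either a construct for overexpression of LGP2, the cytosolic sensor of viral RNA encoded by DHX58, or a vector. There were 2 libraries per group, replicates 2 and 3 of each. The count columns of the LGP2 libraries carry the word flag in their names. The labels give no promoter for the construct, no time after its introduction and no statement of clones or of cultures grown apart. The p-values therefore describe the spread among these 4 libraries alone, which may be technical. The growth text names 293T cells, although the titles and the cell line field name T98G.

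Cholesterol is built from acetyl units through mevalonate, isoprenoid diphosphates, squalene and lanosterol. SREBP2, the product of SREBF2, is a membrane-bound transcription factor that is cut free when sterol in the endoplasmic reticulum is low, and then raises transcription of most enzymes of the pathway and of genes for cholesterol uptake. INSIG1 holds the precursor back when sterol is plentiful and is itself a target, which closes a feedback loop. Glioblastoma cells depend on cholesterol supply, and type I interferon signalling is known to lower cholesterol synthesis in macrophages.

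Promoter windows of 300 bases, 250 before and 50 after the annotated start, were taken from RefSeq on GRCh38.p14. The 10 windows read here belong to 6 of the 8 genes. Windows of the remaining members were not analysed here, and their absence does not describe RefSeq. The 4 windows printed here belong to the transcription factor, its feedback inhibitor, the enzyme at the head of the group and the desaturase, so that a regulator, its inhibitor and an enzyme of each lipid branch can be read side by side. Capitals mark matches, on either strand, to the sterol regulatory element TCACNCCAC, to the E-box CACGTG, both of which SREBP proteins can bind, and to CCAAT, which the SREBP partner NF-Y binds. SREBF2 lies on the plus strand at chr22:41832855-41833154, INSIG1 on the plus strand at chr7:155297628-155297927, HMGCS1 on the minus strand at chr5:43313363-43313662 and SCD on the plus strand at chr10:100346983-100347282.
SREBF2: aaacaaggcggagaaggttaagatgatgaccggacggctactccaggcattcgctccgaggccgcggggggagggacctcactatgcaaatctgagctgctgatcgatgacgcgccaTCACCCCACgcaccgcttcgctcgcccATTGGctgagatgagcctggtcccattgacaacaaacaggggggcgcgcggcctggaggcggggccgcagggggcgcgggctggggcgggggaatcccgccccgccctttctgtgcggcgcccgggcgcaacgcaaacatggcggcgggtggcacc
INSIG1: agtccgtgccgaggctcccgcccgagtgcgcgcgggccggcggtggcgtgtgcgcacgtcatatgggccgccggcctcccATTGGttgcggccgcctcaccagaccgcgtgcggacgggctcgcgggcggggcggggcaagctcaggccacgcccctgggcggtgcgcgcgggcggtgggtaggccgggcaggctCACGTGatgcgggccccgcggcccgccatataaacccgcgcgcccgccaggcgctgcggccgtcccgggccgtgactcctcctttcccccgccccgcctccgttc
HMGCS1: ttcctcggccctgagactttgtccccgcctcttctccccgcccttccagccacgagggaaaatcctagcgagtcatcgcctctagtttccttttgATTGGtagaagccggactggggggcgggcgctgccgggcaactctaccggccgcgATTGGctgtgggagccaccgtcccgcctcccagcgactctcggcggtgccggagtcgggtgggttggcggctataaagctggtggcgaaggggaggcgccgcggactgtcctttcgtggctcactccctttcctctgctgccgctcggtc
SCD: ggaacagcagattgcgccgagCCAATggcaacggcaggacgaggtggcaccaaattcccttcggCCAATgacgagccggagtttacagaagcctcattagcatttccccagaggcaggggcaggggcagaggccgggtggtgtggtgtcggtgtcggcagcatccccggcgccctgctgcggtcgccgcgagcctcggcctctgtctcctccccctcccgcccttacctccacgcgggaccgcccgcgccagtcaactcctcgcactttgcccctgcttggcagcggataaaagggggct

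A match to TCACNCCAC was found in the SREBF2 window alone of the 10 member windows, 133 bases before the start, where 1.13% of the 35116 RefSeq windows hold one. CCAAT was matched in 7 of the 10 windows and in at least 1 window of each of the 6 genes. It was matched in 53 of 106 windows, read for 74 of the other listed genes described below, and in 34.6% of all windows. The E-box was matched in the INSIG1 window alone among the members, against 7.26% of all windows. GGGCGG, the core of the GC box bound by SP1, was matched in 9 of the 10 windows. It was matched in 77 of the 106 windows of the other listed genes and in 45% of all windows. The 2 HMGCS1 windows overlap, as do 2 of the IDI1 windows, so the 10 windows are not independent. In the IDI1 window with 3 CCAAT matches, 2 of them overlap on opposite strands. Matches are descriptions of letters in these windows and do not show binding. Each motif was searched only as the letters given. A window without a match may therefore still hold a site in other letters, and no lack of a site follows.

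**Figure D1:**
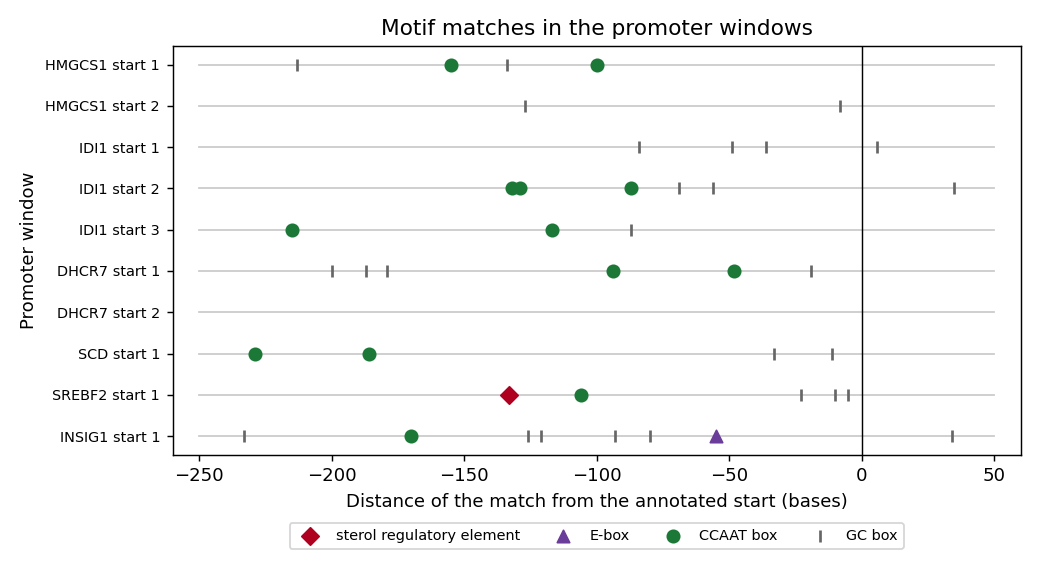
Positions of motif matches in the 10 promoter windows of 6 genes, as the distance in bases from the annotated start (vertical line); each horizontal line is a window and each symbol a match on either strand. The SREBF2 window holds the single match to the sterol regulatory element, and 7 windows hold a CCAAT match.

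None of the 8 sterol genes was called between LGP2-overexpressing and vector cells. Calls were made at an adjusted p under 0.05 by edgeR's quasi-likelihood test, which called 3 of the 17863 genes tested, 0.0168%. At an unadjusted p under 0.05 the test counted 0 members, against 536 genes higher (3.00%) and 260 lower (1.46%) of all tested, and DESeq2 and limma-voom also called 0 members. The log2 fold changes of the members lay between -0.14 and 0.20, with 7 of 8 above 0 and a median of 0.12, beside a median of -0.0080 and 48.7% above 0 over all genes tested. For all 8 the 95% interval lay inside a 2-fold change in either direction, as it did for 10911 of the 17863 genes tested. The smallest unadjusted p among them was 0.228, and each had an adjusted p of 0.998.

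The overexpressed gene itself was far apart between the groups. DHX58 had 30509 and 34045 counts in the LGP2 libraries, against 377 and 571 in the vector libraries, a log2 fold change of 6.09 (adjusted p = 1.91e-06). Library totals were 56033379 and 63300173 counts with LGP2 and 63932198 and 59663219 with vector. The members' counts ran from 3142 to 19801, so counting error alone was at most 1.78% of a value and the spread between libraries set the precision. VIM, CD44, TNC and CHI3L1 were read as mesenchymal glioma markers and MGMT as a gene of glioblastoma lines. Together they summed to between 4741 and 5138 CPM (counts scaled to the library total, with TMM factors) with LGP2. With vector they summed to between 4873 and 6412 CPM, and both sums came mostly from VIM and CD44. The astrocyte marker GFAP was at most 0.693 CPM in any library, and 4 of the 6 astrocyte markers summed to 4.87 and 6.88 CPM with LGP2, against 2.93 and 4.30 CPM with vector, mostly from SLC1A3. Markers of other cell types analysed here summed to at most 10.6 CPM for neurons (2 of 4 markers), 1.69 for oligodendrocytes (1 of 4) and 1.151 for microglia (2 of 5), and the groups overlapped for neurons and oligodendrocytes. The microglial sums were 0.604 and 1.08 CPM with LGP2, against 1.151 and 0.840 CPM with vector, and overlapped as well. The endothelial markers PECAM1 and CLDN5 summed to 5.65 and 7.99 CPM with LGP2, against 3.37 and 5.24 CPM with vector. These sums held 2 of 4 markers and came mostly from PECAM1. Like those of the astrocyte markers, these groups did not overlap, where 16.7% of all genes tested were higher without overlap. Among the astrocyte markers ALDH1L1 went the other way, at 0.267 and 0.292 CPM with LGP2, against 0.773 and 0.329 CPM with vector. The 3 of 4 embryonic kidney markers summed to 18.47 and 18.04 CPM with LGP2 and to 15.98 and 25.15 CPM with vector, mostly from SALL1. Mitochondrial genes took 4.50% and 3.96% of counts with LGP2, against 3.72% and 3.86% with vector. The part of these values in the sterol results was not tested, and in bulk RNA fewer cells of a type cannot be told apart from less RNA per cell.

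The enzymes of the mevalonate stage gave no call. HMGCS1 makes HMG-CoA, the precursor of mevalonate, and lies at chromosome 5, 43289395 to 43313512, minus strand (GENCODE 29, GRCh38). It was at 129 and 131 CPM in LGP2 replicates 2 and 3, against 107 and 134 CPM in vector replicates 2 and 3. Both LGP2 libraries lay between the vector libraries, and HMGCS1 had a log2 fold change of 0.11 (SE 0.15, 95% interval -0.23 to 0.45). IDI1, which converts isopentenyl diphosphate to its allylic isomer, lies at chromosome 10, 1039152 to 1049170, minus strand. IDI1 was at 59.5 and 71.3 CPM with LGP2, against 51.7 and 61.8 CPM with vector. The groups overlapped, and the log2 fold change of 0.20 (SE 0.16, interval -0.15 to 0.56) was the highest of the 8.

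The enzymes of the sterol branch gave no call either. FDFT1, squalene synthase, joins 2 farnesyl diphosphates and commits carbon to sterols. It lies at chromosome 8, 11795573 to 11839309, plus strand. FDFT1 was at 352 and 275 CPM with LGP2, against 290 and 269 CPM with vector. LGP2 replicate 2 stood above the other libraries while LGP2 replicate 3 lay between the vector pair, for a log2 fold change of 0.17 in FDFT1 (SE 0.17, interval -0.20 to 0.53). SQLE, the oxygen-dependent squalene epoxidase and a control point of the sterol branch, lies at chromosome 8, 124998497 to 125022283, plus strand. SQLE was at 61.8 and 65.4 CPM with LGP2, against 58.0 and 63.1 CPM with vector, with overlapping groups. Its log2 fold change was 0.07 (SE 0.14, interval -0.24 to 0.39). DHCR7, which reduces 7-dehydrocholesterol in the last step to cholesterol, lies at chromosome 11, 71428193 to 71452868, minus strand. DHCR7 was at 74.3 and 62.5 CPM with LGP2, against 63.0 and 60.2 CPM with vector. The groups overlapped narrowly, and DHCR7 had a log2 fold change of 0.15 (SE 0.15, interval -0.18 to 0.48).

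SCD makes oleate and palmitoleate from saturated fatty acids and is a target of both SREBP proteins. It lies at chromosome 10, 100347124 to 100364834, plus strand. SCD was at 342 and 216 CPM with LGP2, against 231 and 280 CPM with vector. The LGP2 libraries were the highest and the lowest of the 4, 0.66 apart on the log2 scale, the widest gap within a group among the 8 genes. The log2 fold change was 0.13 with the widest interval of the 8 (SE 0.21, interval -0.34 to 0.60).

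Neither regulator was called. SREBF2 lies at chromosome 22, 41833079 to 41907308, plus strand, and was at 137 and 132 CPM with LGP2, against 148 and 148 CPM with vector. It was the 1 member whose groups did not overlap, and it was lower in both LGP2 libraries, where 16.5% of all genes tested were lower without overlap and 16.7% higher. Its log2 fold change of -0.14 (SE 0.14, interval -0.44 to 0.16) did not pass, and it was the 1 member below 0. INSIG1 lies at chromosome 7, 155297776 to 155310235, plus strand, and was at 113 and 108.5 CPM with LGP2, against 101 and 113 CPM with vector. Its groups overlapped, and its log2 fold change of 0.05 (SE 0.14, interval -0.25 to 0.36) was the nearest to 0. As fold changes, the intervals of these regulators ran from 0.737 to 1.12 for SREBF2 and from 0.839 to 1.29 for INSIG1.

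**Figure D2:**
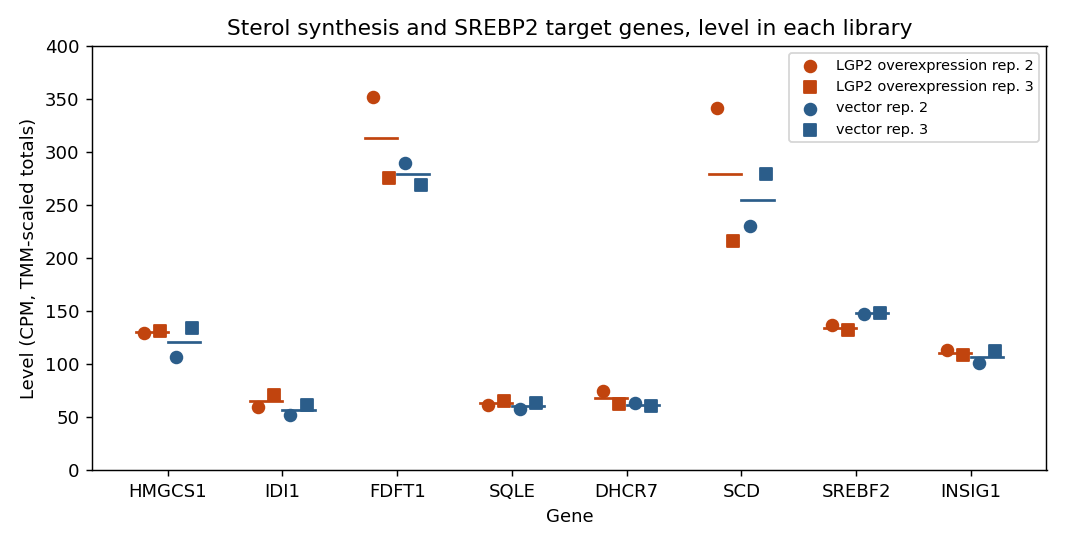
Level of each of the 8 genes in CPM on TMM-scaled library totals, with 1 point per library and short lines at the group means (n = 2 per group). FDFT1 and SCD were highest in LGP2 replicate 2, at 352 and 342 CPM, and only SREBF2 had groups that did not overlap.

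The fitted fold of LGP2 over vector ran from 0.908 for SREBF2 to 1.15 for IDI1. FDFT1 averaged 314 ± 54.3 CPM with LGP2 and 280 ± 14.9 CPM with vector (SD, n = 2 each), and SCD averaged 279 ± 88.8 CPM with LGP2 and 255 ± 34.6 CPM with vector. HMGCS1 averaged 130 ± 1.41 CPM with LGP2 and 121 ± 19.1 CPM with vector, and INSIG1 averaged 111 ± 3.41 CPM with LGP2 and 107 ± 8.01 CPM with vector. SREBF2 averaged 134 ± 3.50 CPM with LGP2 and 148 ± 0.439 CPM with vector. IDI1 averaged 65.4 ± 8.35 CPM with LGP2 and 56.7 ± 7.13 CPM with vector, and SQLE averaged 63.6 ± 2.58 CPM with LGP2 and 60.5 ± 3.65 CPM with vector. DHCR7 averaged 68.4 ± 8.36 CPM with LGP2 and 61.6 ± 1.91 CPM with vector. Together the 8 genes took 0.127% and 0.109% of all counts with LGP2, against 0.0998% and 0.115% with vector, so the groups overlapped in this sum as well.

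Levels between genes were set side by side per kilobase of merged GENCODE exons. FDFT1 had the highest level, 51.7 to 67.7 CPM per kilobase over the 4 libraries, followed by SCD at 40.3 to 63.7, and these ranges overlapped. INSIG1 at 27.7 to 31.0 lay below both, and HMGCS1 at 22.8 to 28.5 overlapped with it. SREBF2 at 17.45 to 19.6 lay below HMGCS1 and overlapped with DHCR7 at 14.5 to 17.9. SQLE at 13.5 to 15.2 and IDI1 at 11.9 to 16.4 overlapped with each other and with DHCR7. The full length of each gene's exons need not be the transcript that T98G cells make, so the order is approximate.

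No member shared an exon with another gene on its strand in GENCODE 29. The use of strand in counting is not given in the sources used here, and exons of FDFT1, HMGCS1, IDI1 and SREBF2 overlap a noncoding gene on the opposite strand. Of those partners, SREBF2-AS1 averaged 1.51 CPM with LGP2 and 1.75 CPM with vector, far below SREBF2. IDI2-AS1 averaged 0.462 CPM with LGP2 and 0.453 CPM with vector, and AC069185.1, the partner of FDFT1, averaged 0.142 CPM with LGP2 and 0.230 CPM with vector. MIR33A, a microRNA that represses the cholesterol exporter ABCA1, lies within SREBF2 on its strand, shares no exon base with it and was not analysed here.

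The differences within the groups overlapped in size with those between them. The median absolute log2 difference over the 8 genes was 0.17 between the LGP2 libraries and 0.14 between the vector libraries, against 0.05 to 0.22 for the 4 pairs of an LGP2 with a vector library. Vector replicate 2 was the lowest library for HMGCS1, IDI1, SQLE and INSIG1. LGP2 replicate 2 was the highest for FDFT1, DHCR7, SCD and INSIG1. The median deviation of the 8 genes from their own means, on the log2 scale, was 0.05 and -0.03 in the LGP2 libraries, against -0.10 and 0.04 in the vector libraries, so the groups overlapped.

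The values of several members depended on single libraries. The median log2 fold change of the 8 was 0.02 when LGP2 overexpression replicate 2 was left out and 0.09 when LGP2 overexpression replicate 3 was. It was 0.0046 in the fit lacking vector replicate 2 and 0.13 in the fit lacking vector replicate 3. Without vector replicate 2, the log2 fold change of HMGCS1 was -0.04, INSIG1 at -0.02 and SCD at -0.0024. Without LGP2 overexpression replicate 2, the log2 fold change of SCD was -0.24 and that of FDFT1 -0.02. SREBF2 kept its sign in each of these fits, from -0.17 to -0.11, as did IDI1 from 0.07 to 0.34, SQLE from 0.01 to 0.13 and DHCR7 from 0.02 to 0.27. A fit without 1 library holds a single library in that group, which is assumed to vary like the other group.

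**Figure D3:**
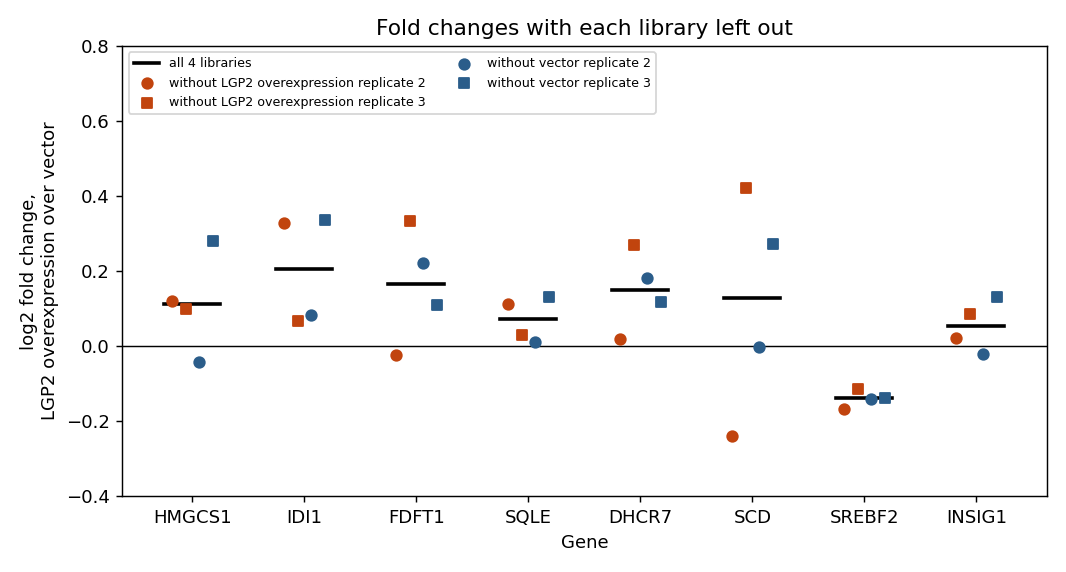
Log2 fold change of the 8 genes in the fit with all 4 libraries (black lines) and with each library left out (points). SCD ran from -0.24 to 0.42 and crossed 0, and SREBF2 stayed between -0.17 and -0.11.

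The mevalonate pathway was read further from a list of 7 genes that includes HMGCS1 and IDI1. In this list 5 genes had positive log2 fold changes and 2 negative ones, the median was 0.09, and 0 were called or had an unadjusted p under 0.05. That median was 0.0096 with LGP2 replicate 2 left out, -0.0041 with vector replicate 2 left out and 0.04 with vector replicate 3 left out. ACAT2, the cytosolic thiolase at the head of the pathway, was at 251 and 212 CPM with LGP2, against 201 and 210 CPM with vector. Both LGP2 libraries of ACAT2 lay above both vector libraries, as for 16.7% of all genes tested, and its log2 fold change of 0.17 (SE 0.15) did not pass. Farnesyl diphosphate synthase FDPS had a log2 fold change of 0.09 (SE 0.15), and MVD, the decarboxylase that forms isopentenyl diphosphate, 0.02 (SE 0.17).

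The steps from squalene to cholesterol, FDFT1, SQLE and DHCR7 included, gave 9 of 12 genes above 0, a median of 0.11 and 0 called. Leaving out LGP2 replicate 2 gave a median of 0.02, and leaving out LGP2 replicate 3 gave 0.05. LBR, a sterol C14 reductase that also anchors chromatin at the nuclear lamina, was the 1 gene with an unadjusted p under 0.05, at 87.5 and 83.6 CPM with LGP2 against 63.3 and 72.7 CPM with vector (log2 fold change 0.33, SE 0.14, adjusted p = 0.998). On the log2 fold change scale, the methyl sterol oxidase MSMO1 was at -0.11 (SE 0.14) and lanosterol synthase LSS at -0.10 (SE 0.15), both with overlapping groups. The lanosterol demethylase CYP51A1 was at 0.15 on that scale (SE 0.14), and its exons are shared with 2 other genes on its strand, so its count is uncertain.

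**Figure D4:**
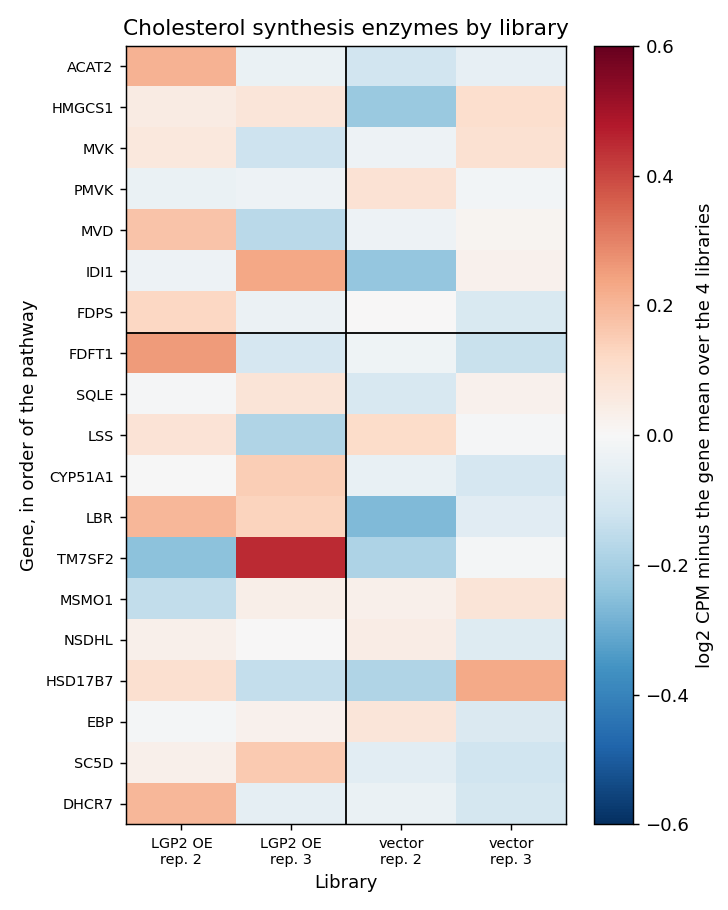
Deviation of log2 CPM from each gene's mean over the 4 libraries for 19 enzymes of cholesterol synthesis, in order of the pathway, with the LGP2 overexpression (OE) libraries left of the vector libraries; the horizontal line separates the mevalonate stage from the sterol branch. LBR and SC5D were above their mean in both LGP2 libraries and below it in both vector libraries, unlike the other 17 enzymes. Groups did not overlap for LBR, SC5D, ACAT2 and CYP51A1, higher with LGP2, and for PMVK, lower with LGP2. Of all genes tested, 16.7% were higher and 16.5% lower without overlap.

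The machinery that controls SREBP showed no common direction. Of 16 genes for SREBP processing and sterol sensing, SREBF2 and INSIG1 included, 8 lay above 0 and 8 below, with a median of 0.0013, 0 called and 0 at an unadjusted p under 0.05. With each library left out in turn that median ran from -0.04 (LGP2 replicate 2) to 0.06 (vector replicate 3). Groups did not overlap for 3 of the 16 genes, higher with LGP2, and for 5, lower with LGP2. Of all genes tested, 16.7% were higher and 16.5% lower without overlap. The segregase VCP, which extracts INSIG1 from the membrane for degradation, was at 0.04 on the log2 fold change scale (SE 0.17), the ubiquitin ligase RNF145 at -0.12 (SE 0.15) and MBTPS1, the site-1 protease that makes the first cut in SREBP, at -0.22 (SE 0.15). SCAP, the escort of SREBP to the Golgi, was at 57.5 and 58.4 CPM with LGP2, against 74.4 and 63.2 CPM with vector. Its log2 fold change was -0.25 (SE 0.15, interval -0.57 to 0.08). In the other direction, MBTPS2 was at 0.34 (SE 0.20, interval -0.10 to 0.78) and PAQR3 at 0.40 (SE 0.24, interval -0.13 to 0.92). SCAP, MBTPS2 and PAQR3 were named after their values were seen. The 7 cofactor genes had 3 above 0, a median of -0.03 and 0 at an unadjusted p under 0.05, with log2 fold changes for SP3 of 0.23 (SE 0.16), SP1 of 0.10 (SE 0.17) and the NF-Y subunit NFYA of -0.03 (SE 0.15). The cofactor median was -0.09 if vector replicate 2 was left out, 0.09 if vector replicate 3 was, and 0.02 on library totals without TMM.

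Other SREBP2 targets and the uptake of cholesterol also gave no call. Of 5 further SREBP2 targets 3 lay above and 2 below 0, with a median of 0.14, which was 0.02 in the fit lacking LGP2 replicate 3, and 0 at an unadjusted p under 0.05. The retinol dehydrogenase RDH11 had a log2 fold change of 0.21 (SE 0.14) and TMEM97, an endoplasmic reticulum protein that binds NPC1, had 0.14 (SE 0.14). LPIN1, a phosphatidate phosphatase, was at 32.3 and 33.5 CPM with LGP2, against 32.0 and 47.5 CPM with vector, for a log2 fold change of -0.27 (SE 0.21). Of 12 genes for uptake and intracellular transport 4 lay above 0 and 8 below, with a median of -0.07. The median of these genes was -0.14 in the fit lacking LGP2 replicate 3, 0.03 in the fit lacking vector replicate 2 and -0.02 on library totals without TMM. LRP1, a large endocytic receptor for apolipoprotein E, was the 1 gene of these at an unadjusted p under 0.05, at 48.99 and 48.15 CPM with LGP2 against 62.7 and 60.6 CPM with vector (log2 fold change -0.34, SE 0.14, adjusted p = 0.998). The lysosomal cholesterol carrier NPC2 was at -0.04 on the log2 fold change scale (SE 0.19), the lysosomal lipase LIPA at 0.14 (SE 0.14), and NPC1, which exports cholesterol from lysosomes, at -0.10 (SE 0.14). RDH11 and NPC2 each share an exon with another gene on their strand, so their counts are uncertain.

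Storage and efflux genes, many of them targets of the oxysterol receptor LXR, had 5 of 14 tested genes above 0, CYP7B1 not being analysed here, and a median of -0.17, with 0 called and 0 at an unadjusted p under 0.05. This median depended on single libraries and on the low genes: it was -0.27 lacking LGP2 replicate 2, -0.02 lacking LGP2 replicate 3, 0.01 lacking vector replicate 3, and -0.03 with at least 5 CPM in 2 libraries. For 7 of the 14 the interval lay inside a 2-fold change, and 4 of the other 7 averaged under 2 CPM. The LXR gene NR1H2 had a log2 fold change of -0.10 (SE 0.15), its partner RXRA at -0.25 (SE 0.15), and SOAT1, which esterifies cholesterol for storage, at 0.34 (SE 0.16, interval -0.01 to 0.69). SOAT1 was at 46.7 and 53.2 CPM with LGP2, against 40.2 and 38.8 CPM with vector.

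Fatty acid synthesis and desaturation, the branch to which SCD belongs and which SREBP1 mainly drives, had 10 of 16 genes above 0, a median of 0.07 and 0 called. The median turned to -0.05 when LGP2 replicate 2 was left out, and was 0.01 when vector replicate 2 was and 0.15 when vector replicate 3 was. ELOVL6, which extends palmitate to stearate, was the 1 gene at an unadjusted p under 0.05, at 25.9 and 29.9 CPM with LGP2 against 17.3 and 22.8 CPM with vector (log2 fold change 0.48, SE 0.20, adjusted p = 0.998). The log2 fold change of ELOVL6 was 0.29 in the fit lacking vector replicate 2 and 0.69 in the fit lacking vector replicate 3. The desaturase FADS2 had a log2 fold change of -0.03 (SE 0.18), ATP citrate lyase ACLY at -0.04 (SE 0.14) and the acyl-CoA synthetase ACSL3 at 0.18 (SE 0.16). FADS2 was at 301 and 214 CPM in LGP2 replicates 2 and 3, against 271 and 255 CPM in the vector pair, so, like SCD, it was highest of the 4 libraries in LGP2 replicate 2 and lowest in LGP2 replicate 3. Users of isoprenoids outside the sterol branch had 9 of 10 genes above 0 and a median of 0.09. It was 0.16 lacking LGP2 replicate 2, 0.0062 lacking LGP2 replicate 3 and 0.20 lacking vector replicate 2. FNTB, the beta subunit of protein farnesyltransferase, was at 12.6 and 12.5 CPM with LGP2, against 8.90 and 8.48 CPM with vector (log2 fold change 0.53, SE 0.20, adjusted p = 0.998). FNTB shares an exon with another gene on its strand, so its count is uncertain, and the same holds for FADS2 and for FNTA, the alpha subunit, with a log2 fold change of 0.05 (SE 0.18). NUS1 and DHDDS, subunits of the enzyme that makes dolichol, were at log2 fold changes of 0.09 (SE 0.14) and -0.04 (SE 0.16).

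**Figure D5:**
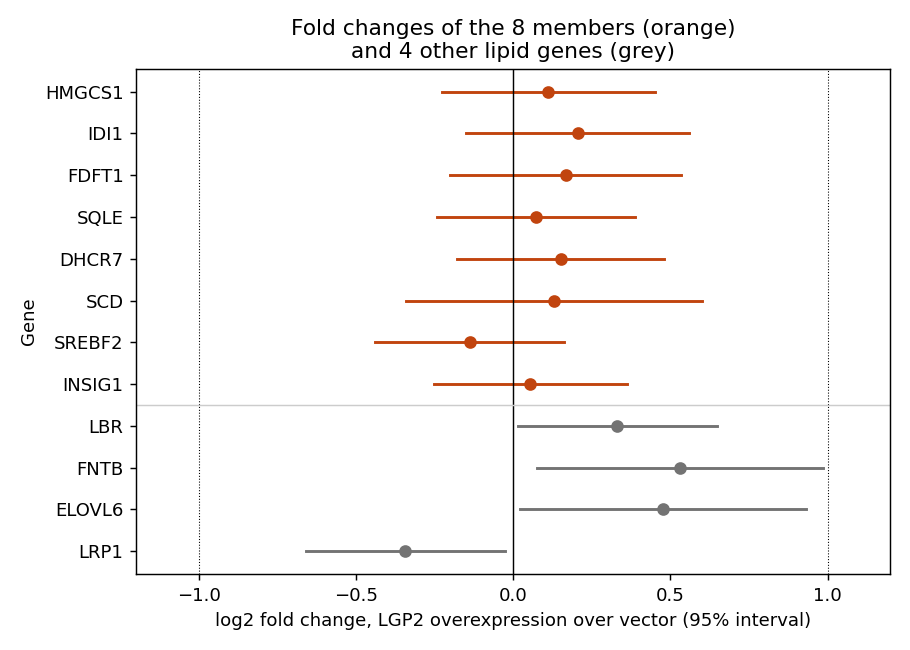
Log2 fold changes of LGP2 overexpression over vector with 95% intervals for the 8 sterol genes (orange) and for 4 other lipid genes at an unadjusted p under 0.05 (grey); dotted lines mark a 2-fold change. The 8 sterol genes lay between -0.14 and 0.20 with intervals that include 0, and FNTB was at 0.53.

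Over the 91 list genes outside the 8 members, 90 were tested, with 48 above 0 and 42 below and a median of 0.02. At an unadjusted p under 0.05, 3 were higher and 1 was lower, and 0 were called. The profile most like the members' median over the 4 libraries, by Euclidean distance of log2 deviations among 10773 genes of at least 5 CPM, belonged to SFXN5 (distance 0.0257), followed by DNAJC1 (0.0263), ZNF738 (0.0290), STARD7 (0.0294) and EIF4B (0.0317). Of the members, INSIG1 lay nearest to that profile (0.0276) and SCD farthest (0.424), with 7859 of the other genes nearer than SCD. These distances rest on 4 libraries and are descriptions.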

How the data were processed

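RNA was extracted with TRIzol and sequenced after a SMARTER mRNA-Seq preparation, per the labels' protocols. The authors deposited raw read counts per human gene symbol, 1 column per library. The submitters' processing notes name mm10, a mouse build; aligner, counter and annotation: not given in the sources used here. Each listed gene has reads in 2 or more libraries.

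Counts were tested with edgeR 4.0.16 (R 4.3.3): TMM scaling, filterByExpr by group, no covariate, two-sided quasi-likelihood test, and Benjamini-Hochberg adjustment over all 17863 genes tested. SE and 95% intervals follow from its F statistic and degrees of freedom. The fit was also run on simulated counts with the same spread for all genes and larger changes than those of the members. No result here rests on that run. Log2 deviations use a prior count of 2, except those drawn for the cholesterol synthesis enzymes, which use none. The gap within a group given for SCD uses none either.

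The members and the 9 gene lists were chosen with earlier results of these data known; some genes were left out of the lists and markers and are not reported here. From each list the text names the 3 most abundant genes outside the members and each gene that was called or had an unadjusted p under 0.05, and it names the 5 genes of most similar profile. SPRING1 was read under its older symbol C12orf49. Gene positions are from GENCODE 29 (GRCh38), promoters from RefSeq (GRCh38.p14); the authors' annotation may differ. Alternatives were the replicate block, each library left out, other scalings and filters, DESeq2 1.42.0 and limma-voom (limma 3.58.1). Alternatives for LBR, FNTB, LRP1 and ELOVL6 were added after seeing the data.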

Additional observations from a re-analysis of the deposited data

How the results depend on the processing

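No member was called under any of the 12 alternatives, and the members' adjusted p ran from 0.361 upward. Under the alternatives that kept all 4 libraries each member kept its sign, and their median log2 fold change ran from 0.11 to 0.16. With 1 library left out that median ran from 0.0046 to 0.13. In those fits HMGCS1 ran from -0.0416 to 0.280, FDFT1 from -0.0232 to 0.332, SCD from -0.238 to 0.422 and INSIG1 from -0.0197 to 0.131. The sign turned for HMGCS1, INSIG1 and SCD (-0.0024) without vector replicate 2 and for SCD and FDFT1 in the fit lacking LGP2 overexpression replicate 2; the cause was not tested. Library totals without TMM moved the median of all genes to 0.04, against -0.0080, and the members' median to 0.16. It also gave list medians of 0.14 for the mevalonate list, 0.14 for users of isoprenoids, 0.11 for fatty acid synthesis and 0.05 for SREBP processing. LBR, FNTB, LRP1 and ELOVL6 kept their sign and were not called under any of the 12 alternatives, with adjusted p of at least 0.123.

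Over all genes, edgeR called 3 higher and 0 lower. The counts were 13 and 9 with DESeq2, 4 and 2 with limma-voom, 4 and 2 with at least 5 CPM in 2 libraries, and 1 and 0 with no filter. Leaving out a library gave 1 to 291 higher and 1 to 141 lower, with a single library in one group. The replicate numbers are shared by the groups, but no label says that they pair libraries. The difference between replicates 2 and 3 correlated at 0.182 between the groups, across 10781 genes. With the replicate number as a block, 5 genes were called higher and 3 lower, none of them a member. With 2 libraries per group, a change of the size seen for the members could not be told from the spread between libraries.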
